A study of Mus musculus with 4 samples.

Results

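The genes described are those for the proteins of the cytosolic ribosome and of the mitochondrial ribosome, measured in sorted precursors of fat cells from wild-type mice and from mice with an Adamts1 transgene. They were chosen by name, from the gene symbol of every probe of the array. Cytosolic symbols begin with Rpl or Rps followed by a number or a P, leaving out the Rps6k kinases and names with Rik. Mitochondrial symbols are Mrpl or Mrps with a number and nothing after it. This gave 278 probes for 157 genes of 36155 genes and features on the array: 84 genes of the cytosolic set (181 probes) and 73 of the mitochondrial set (97 probes). The rule used no measured value. It took in Rps19bp1, whose product binds a ribosomal protein and is not part of the ribosome, and Mrps36, whose product has since been placed in a mitochondrial dehydrogenase complex. Both stay in the counts, and without them the set medians given further on were -0.24 (81 genes) and -0.05 (71 genes).

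Flow cytometry was used to take adipocyte progenitors out of subcutaneous fat of FVB males aged 4 weeks, which had no treatment, and the sorted cells went into lysis uncultured. The wild-type and the Adamts1 transgenic group had 2 samples each, with 1 single-colour array a sample. Adamts1 is a secreted protease that cleaves proteoglycans of the matrix. Neither a promoter of the transgene nor its expressing cells are named in the labels. Nor is it stated that each sample is another animal, so a p-value reflects the spread among these arrays alone, which may be technical. The normalised signal of Adamts1 itself was 6.85 and 6.92 on the wild-type arrays and 6.98 and 7.05 on the transgenic arrays, a log2 difference of 0.13 ± 0.10 (SE) that limma did not call (adjusted p = 0.510). Whether its probe reports the transgene is not known from the labels.

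A ribosome joins a small subunit, which reads the messenger RNA, to a large subunit, which forms peptide bonds. The cytosolic ribosome makes nearly all proteins of the cell, and messages for its proteins are among the most abundant in growing cells. Many of these messages begin with a C followed by an unbroken run of C and T, the 5′ terminal oligopyrimidine start, through which mTOR signalling controls their translation. The mitochondrial ribosome makes the few respiratory chain proteins encoded in mitochondrial DNA, its proteins are imported from the cytosol, and their genes are often bound by NRF and ETS family factors. In fat precursors, ribosome synthesis accompanies proliferation, and mitochondrial translation is needed for the oxidative enzymes built up as the cells mature.

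The 5′ starts show in letters a feature that some cytosolic genes had and no mitochondrial gene with a matched promoter had. RefSeq promoters (GRCm38.p6) were matched for 127 of the 157 genes, and each line gives 10 bases before the annotated start and 20 from it, with an unbroken C and T run through the start in capitals. The first 5 genes start with a C and at least 4 further C or T, and the other 4 do not. They were chosen as examples after their values were seen.
Rpl15, chr14:18270967-18270996, minus strand: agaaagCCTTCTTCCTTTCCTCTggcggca
Rpl35, chr2:39005112-39005141, minus strand: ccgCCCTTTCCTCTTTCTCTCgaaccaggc
Rps6, chr4:86857348-86857377, minus strand: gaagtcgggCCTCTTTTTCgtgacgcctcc
Rps10, chr17:27635225-27635254, minus strand: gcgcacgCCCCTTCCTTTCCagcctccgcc
Rps18, chr17:33955646-33955675, minus strand: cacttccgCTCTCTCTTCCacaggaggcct
Rps24, chr14:24490668-24490697, plus strand: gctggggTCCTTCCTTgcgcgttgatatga
Rps15, chr10:80292421-80292450, plus strand: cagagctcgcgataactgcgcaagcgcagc
Mrps31, chr8:22411330-22411359, plus strand: tccaaaaggagcggaacagtgcaggctgga
Mrps6, chr16:92058326-92058355, plus strand: tcgccgtccgggagctgaccggccgtgttc

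Such a start was found for 13 of the 63 cytosolic genes with a promoter (20.6%), for 0 of 64 mitochondrial genes and for 3.01% of all 27025 genes in the RefSeq promoter table. Annotated starts can lie a few bases off: at Rps24 a run of C and T crosses the start but the base at the start is T, and it was not counted. The ETS letters CCGGAAG, searched on both strands of the 300 bases around the start, were in 39.7% of cytosolic, 32.8% of mitochondrial and 9.93% of all promoters. The YY1 letters AAGATGGC were in 9.52%, 17.2% and 3.19%, the NRF1 core GCGCATGC in 4.76%, 10.9% and 3.05%, the E-box CACGTG in 9.52%, 6.25% and 8.09%, and the TATA box TATAAA in 11.1%, 7.81% and 15.7%. The ETS letters end in AAG and the YY1 letters begin with it, so these 2 matches can overlap. A match of letters is a description of the sequence and not a measured site.

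Of the 157 genes, 154 were tested, 82 cytosolic (50 of the large and 32 of the small subunit) and 72 mitochondrial (46 large and 26 small). Each of the 154 was well above background on the 4 arrays, and no member probe was saturated. Rpl3l, a paralog of Rpl3 known from muscle, Rpl10l, a testis paralog of Rpl10, and Mrpl21 were not tested, since their probes were not well above background on both arrays of a group. The array of wild-type sample 1 stood apart, with 45.8% of probes well above background against 54.4% to 55.8% on the others, and with a 75th percentile signal of 209 against 290 to 306. For that reason values are given by array, and group results also without it.

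Cytosolic ribosomal protein signals were slightly lower on the transgenic arrays for nearly every gene, mitochondrial ones were spread about 0, and no gene of either set passed the test. The median log2 difference, transgenic minus wild-type, was -0.24 over the 82 cytosolic genes (quartiles -0.28 and -0.16), a level 1.18-fold lower, and -0.05 over the 72 mitochondrial genes (quartiles -0.13 and 0.02), beside 0.00 over all 21476 features. The difference was below 0 for 77 of 82 cytosolic and 46 of 72 mitochondrial genes, against 49.9% of all features. In limma, with p adjusted by Benjamini-Hochberg across the whole table and a threshold of 0.05, 0 cytosolic and 0 mitochondrial genes were called, where 539 of all features were (2.51%). At an unadjusted p under 0.05 there were 6 cytosolic genes (7.32%), all lower in the transgenic samples, and 2 mitochondrial genes (2.78%), Mrps31 lower and Mrpl38 higher, against 19.4% of all features.

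The arrays do not carry this pattern evenly. Each gene was centred on its own mean over the 4 arrays, and the median over the cytosolic genes was then 0.24 on wild-type array 1, -0.00051 on wild-type array 2, and -0.12 and -0.11 on the transgenic pair. Wild-type array 1 was thus as far above wild-type array 2 as the groups were apart, and the transgenic arrays lay close together. Wild-type array 1 exceeded wild-type array 2 for 79 of 82 cytosolic genes, by a median of 0.23, and for 63 of 72 mitochondrial genes, by 0.14, against 0.02 over all features. The mitochondrial medians were 0.10 and -0.04 on the wild-type and -0.05 and -0.02 on the transgenic arrays, so the groups overlapped.

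**Figure D1:**
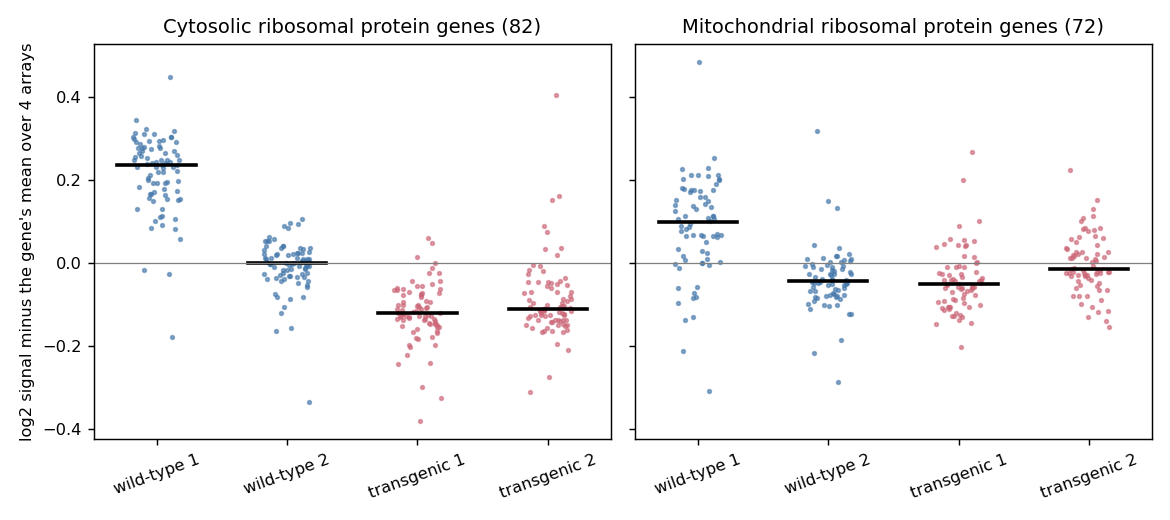
Log2 signal of each gene minus its mean over the 4 arrays (y axis), by array (x axis), with 1 point per gene and the median as a bar, for 82 cytosolic (left) and 72 mitochondrial (right) ribosomal protein genes. Cytosolic medians are 0.24 on wild-type array 1, near 0 on wild-type array 2 and -0.12 and -0.11 on the transgenic arrays, while 3 of the 4 mitochondrial medians lie between -0.05 and -0.02.

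Without wild-type array 1 the cytosolic median was -0.11, still with 71 of 82 genes below 0, and the mitochondrial median was 0.01, with 31 of 72 below 0. Without wild-type array 2 the medians were -0.35 and -0.11, and 49 cytosolic genes and 1 mitochondrial gene, Mrps11 (-0.58 ± 0.11, adjusted p = 0.0314 in limma), were called, where 3059 of all features were (14.2%). Both transgenic arrays lay below both wild-type arrays for 67 of 82 cytosolic genes and above both for 2, Rpl7l1 and Rps2. The corresponding counts were 21 and 10 of 72 mitochondrial genes, and the shares over all features were 26.6% below and 26.4% above. The cytosolic genes share probe brightness and arrays, and they are not independent of each other.

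The contrast of the 2 ribosomes can be read within each array. The cytosolic minus the mitochondrial median of centred values was 0.14 and 0.04 on the wild-type arrays and -0.07 and -0.09 on the transgenic arrays, so the groups did not overlap. As a difference of medians the contrast was -0.18, and it was -0.13 without wild-type array 1 and -0.25 without wild-type array 2. The pooled SD of this per-array contrast within groups was 0.0496 (n = 2 a group). Under quantile normalisation, which gives every array the same distribution of signals, the cytosolic median was -0.04 and the contrast -0.02. The 2 sets lie at unlike signal levels, with a median normalised signal of 8.18 for cytosolic and 2.66 for mitochondrial genes. Features outside both sets had a median difference of -0.22 at levels from 8 to 10 and -0.04 from 2 to 4. The part of signal level in the contrast was not tested.

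Signal level moved with the difference. Features outside both sets had a median difference of -0.01 in the class with a mean normalised signal from 0 to 2. It was -0.04 from 2 to 4, -0.12 from 6 to 8 and -0.22 from 8 to 10. The 0.55 in the class from -6 to -4 is shaped by the filter and is not read as an effect of level. The lowest signal well above background was -3.40 on wild-type array 1 and -4.77 on transgenic array 1. Features this dim could thus enter the test through the transgenic arrays, where they were high. Cytosolic ribosomal protein probes lie at the bright end: 74 of 82 had a mean signal of at least 6, with a median difference of -0.24 against -0.15 for the 1089 other features there, and 44 had at least 8, with -0.25 against -0.23 for 259 other features. All 44 were below 0, as were 88.0% of those 259. The 65 mitochondrial genes between 0 and 6 had a median of -0.05, against -0.03 for 10064 other features. Brightness of different probes is used here as a technical class and not to rank genes, and the part of signal level in the cytosolic difference was not tested beyond these classes.

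**Figure D2:**
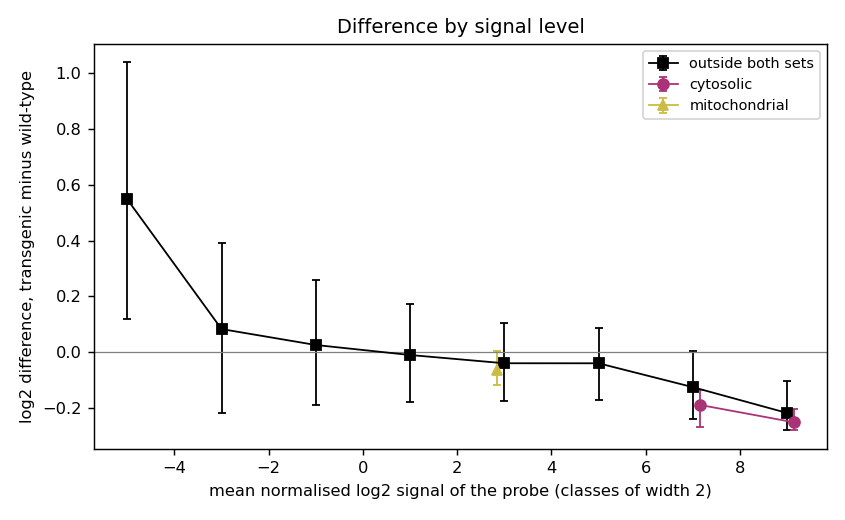
Median log2 difference, transgenic minus wild-type (y axis), by class of mean normalised log2 signal of width 2 (x axis), with quartiles as bars, for features outside both sets, cytosolic and mitochondrial genes, in classes of at least 20 genes. In the class from 8 to 10 the cytosolic median is -0.25 and that of other features -0.22, and in the class from 6 to 8 they are -0.19 and -0.12.

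Among the small subunit genes of the cytosolic ribosome the median difference was -0.25, with 29 of 32 below 0. Rps15, a protein of the head of the small subunit, gave the lowest value of all members and the smallest p. Its normalised log2 signal was 7.79 and 7.45 on the wild-type and 7.10 and 7.03 on the transgenic arrays, so both transgenic samples were below both wild-type samples. The difference was -0.55 ± 0.14 (SE), or 1.47-fold lower (95% interval 1.15 to 1.87), with an adjusted p of 0.119 in limma. After a median shift of the arrays in place of the 75th percentile it was called (-0.59, adjusted p = 0.0475), as it was without wild-type array 2 (-0.73, adjusted p = 0.00933). It was not called without wild-type array 1 (-0.38, adjusted p = 0.0592) or with quantile normalisation (-0.42, adjusted p = 0.109). After the median shift 1.90% of all features were called, and Rps15 and Rps24 were the only members. Rps15 is measured by 2 probes in different places of its message, shown here because both gave a low value. Coordinates are on mm9, on which exon annotation was not used here, and the other probe spans 841 bases of the genome for its 60 letters.
Rps15 probe used, chr10:79756716-79756775: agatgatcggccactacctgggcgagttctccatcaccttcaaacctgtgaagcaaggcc
Rps15 other probe, chr10:79755554-79756394: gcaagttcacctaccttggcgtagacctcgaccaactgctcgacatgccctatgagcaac

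The other Rps15 probe read 6.37 and 6.11 on the wild-type and 5.75 and 5.72 on the transgenic arrays, a difference of -0.50. Rps24, mutated in some families with Diamond-Blackfan anaemia, read 9.54 and 9.36 against 9.10 and 9.05, a difference of -0.38 ± 0.13 (adjusted p = 0.196). Its groups did not overlap, and it was called after the median shift (-0.41, adjusted p = 0.0404) and without wild-type array 2 (-0.47), while quantile normalisation gave -0.12. Rps29, another small subunit protein, read 9.17 and 8.87 against 8.71 and 8.65, a difference of -0.34 ± 0.14 (adjusted p = 0.270).

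Rps6, whose protein is phosphorylated on growth signals, read 8.45 and 8.26 on the wild-type and 8.06 and 8.10 on the transgenic arrays, a difference of -0.27 ± 0.12. Rps14, a protein of the small subunit platform, differed by -0.27 ± 0.15 and Rps18, often used as a reference gene, by -0.16 ± 0.12, where the groups overlapped. At the other end of the group, Rps4l differed by 0.10 ± 0.29, Rps2 by 0.04 ± 0.10 and Rps15a by 0.01 ± 0.11. These 3 changed sign in at least 1 alternative each, Rps2 in the mean over its probes. The highest difference among the tested probes of Rps15a was 0.48. Rps2 read 7.59 and 7.60 on the wild-type and 7.66 and 7.61 on the transgenic arrays, so that it lacked the excess on wild-type array 1 seen in 79 of the 82 genes.

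In the large subunit of the cytosolic ribosome the median difference was -0.22, with 48 of 50 genes below 0. Rpl13 had the lowest value and read 9.04 and 8.83 on the wild-type and 8.50 and 8.61 on the transgenic arrays, a difference of -0.38 ± 0.13 (adjusted p = 0.199). All 4 tested probes of Rpl13 gave values from -0.38 to -0.28, although 2 of its probes map to another chromosome than the gene and may report copies. Rpl37a differed by -0.36 ± 0.15 and Rpl34 by -0.35 ± 0.14, both with groups that did not overlap. Rpl13a, which is also a translational silencer released from ribosomes in inflammation, differed by -0.29 ± 0.13, while its other tested probe gave -0.00021.

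The stalk proteins, which recruit the translation GTPases to the large subunit, lay nearer to 0. Rplp0 differed by -0.14 ± 0.13, Rplp1 by -0.16 ± 0.15 and Rplp2 by -0.16 ± 0.13, and all 3 turned positive under quantile normalisation. Rplp1 read 9.04 and 8.71 on the wild-type and 8.72 and 8.70 on the transgenic arrays, and without wild-type array 1 its difference was 0.00. Rpl10, a late-joining protein of the large subunit, differed by -0.22 ± 0.15 and also changed sign under quantile normalisation. Rpl3, at the peptidyl transferase centre, differed by -0.17 ± 0.13 with overlapping groups, and Rpl27 by -0.01 ± 0.11.

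Rpl5 and Rpl11, chosen here after their values were seen since they bind Mdm2 when ribosome assembly fails, differed by -0.26 and -0.19, within the range of the set. The 13 genes with a pyrimidine start had a median difference of -0.23 and the 48 tested genes with a promoter but no such start -0.24. Both medians lie within the quartiles of the whole cytosolic set. Some genes counted without such a start, among them Rpl27a and Rps24, have a run of C and T across the annotated start. The split is thus inexact, and a difference between its classes was not tested.

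**Figure D3:**
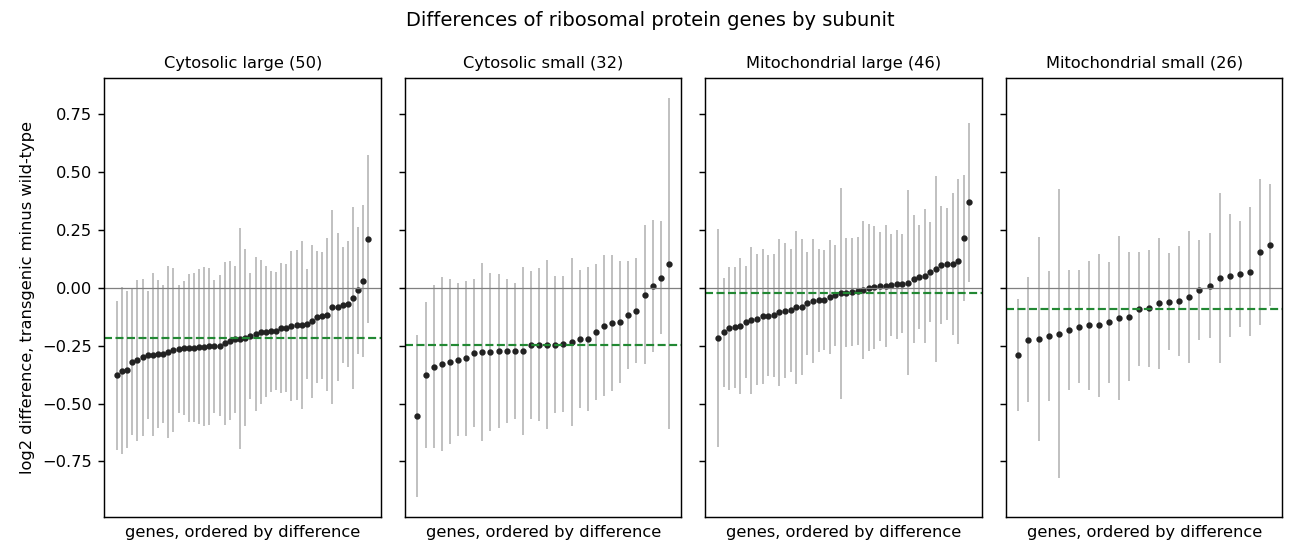
Log2 difference, transgenic minus wild-type, of every tested gene (points, ordered by value within a panel) with its 95% interval (grey lines) for the 4 subunit groups, and the group median as a dashed line at -0.22, -0.25, -0.02 and -0.09 from left to right. The cytosolic points lie below 0 for 77 of 82 genes, and the mitochondrial points lie on both sides.

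Some paralogs of cytosolic proteins gave other values than the genes they resemble. Rpl22, dispensable in most cells but needed in T cell development, read 7.51 and 7.23 on the wild-type and 7.01 and 7.08 on the transgenic arrays, a difference of -0.32 ± 0.13. Its paralog Rpl22l1 read 6.66 and 6.38 against 6.47 and 6.62, a difference of 0.03 ± 0.13 with overlapping groups. Rps27 differed by -0.31 ± 0.13, and its p53-inducible paralog Rps27l, reading 6.13 and 5.86 against 5.93 and 6.002, by -0.03 ± 0.12.

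Rpl7 differed by -0.17 ± 0.11 and Rpl7l1, an assembly factor that resembles it, by 0.21 ± 0.15. Rps4x differed by -0.25 ± 0.12 and Rps4l by 0.10 ± 0.29, where the replicates were far apart (2.23 and 1.66 on the wild-type, 1.69 and 2.40 on the transgenic arrays). Rpl36a and Rpl36al both differed by -0.29, but Rpl36al read 5.32 on transgenic array 1 and 5.69 on transgenic array 2, and without transgenic array 1 its difference was -0.11. Rpl39 differed by -0.27 ± 0.14. Its testis-enriched paralog Rpl39l read 1.51 and 1.47 on the wild-type and 0.997 and 1.54 on the transgenic arrays, a difference of -0.22 ± 0.19 with overlapping groups, which was 0.05 without transgenic array 1. Whether the probes of such pairs also bind the paralog was not tested. Differences between the members of a pair were not tested. The probes of Rpl22l1 and Rps27l read lower signals than those of Rpl22 and Rps27. Signal level moved with the difference over all features, and its part in these pairs was not tested.

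**Figure D4:**
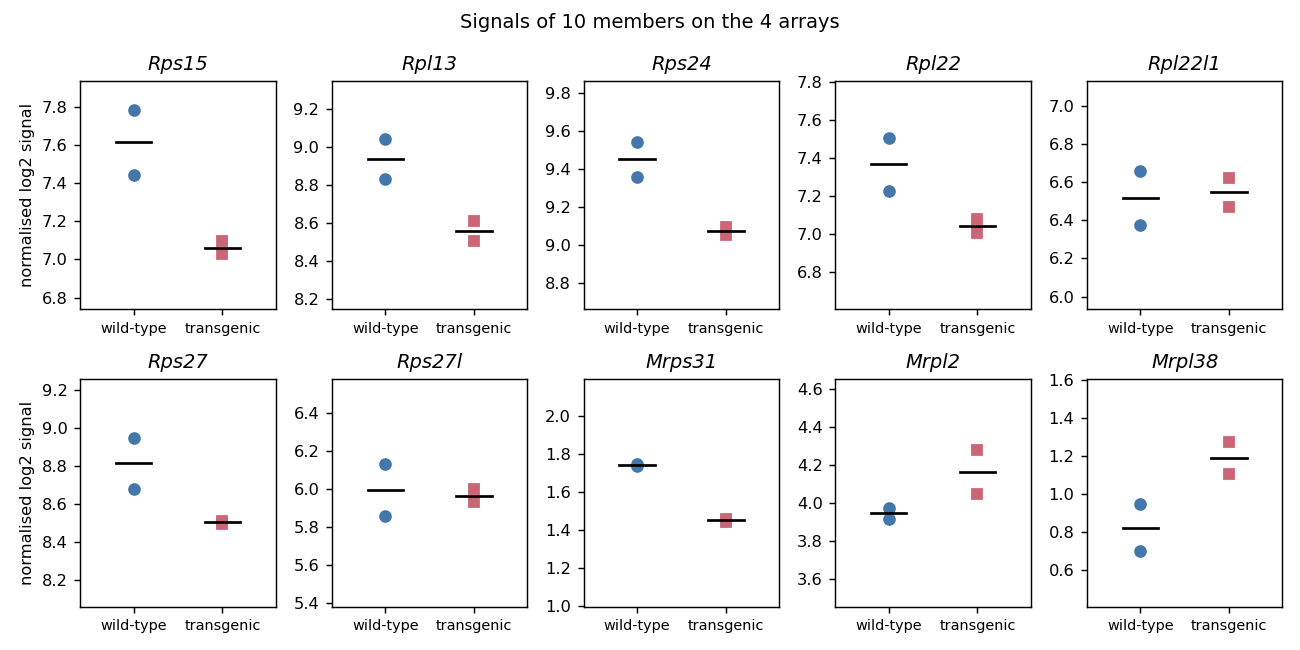
Normalised log2 signal (y axis, each panel spanning 1.2 units around the gene's mean) of 10 genes on the 2 wild-type (circles) and 2 transgenic arrays (squares), with group means as bars. The groups do not overlap for Rps15, Rpl13, Rps24, Rpl22, Rps27, Mrps31, Mrpl2 and Mrpl38, and they overlap for the paralogs Rpl22l1 and Rps27l.

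Several probes were tested for 53 cytosolic genes, and the median range of the differences within a gene was 0.07, with opposite signs in 8 genes. Of the member probes, 12 in 6 genes map to another chromosome than their gene, and for Rps27 and Rps29 such a probe was the one used. Without these 2 genes the cytosolic median was -0.23.

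Mitochondrial ribosomal protein genes differed less and in both directions. In the small subunit the median was -0.09, with 19 of 26 below 0, and in the large subunit -0.02, with 27 of 46 below 0. Mrps31, a small subunit protein of mitochondria, had the smallest p and read 1.74 and 1.75 on the wild-type and 1.46 and 1.44 on the transgenic arrays. Replicates were closer than the groups, and the difference was -0.29 ± 0.10, or 1.22-fold lower (95% interval 1.04 to 1.44), with an adjusted p of 0.191. Over the alternatives it ranged from -0.33 to -0.23 and was not called in any. Unlike most cytosolic genes it showed no excess on wild-type array 1.

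Mrps23 differed by -0.22 ± 0.11, while its other tested probe gave 0.08. Mrps27, a protein with RNA-binding repeats, differed by -0.22 ± 0.18. Mrps27 read -0.19 and 0.22 on the wild-type and -0.20 and -0.22 on the transgenic arrays, so its difference rests on wild-type array 2, without which it was -0.01. The highest values of the small subunit were those of Mrps6, at 0.18 ± 0.11, Mrps5, at 0.15 ± 0.13, and Mrps2, at 0.07 ± 0.11. The other tested probe of Mrps2 gave 0.39. Mrps6 read 3.47 and 3.46 on the wild-type and 3.76 and 3.54 on the transgenic arrays, so both transgenic samples were higher.

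In the large subunit of the mitochondrial ribosome, Mrpl38 gave the highest value of all 154 genes. It read 0.70 and 0.95 on the wild-type and 1.27 and 1.11 on the transgenic arrays, a difference of 0.37 ± 0.14, or 1.29-fold higher (95% interval 1.02 to 1.64), with an adjusted p of 0.233. Mrpl2, a core protein of the large subunit, read 3.92 and 3.98 against 4.05 and 4.28, a difference of 0.22 ± 0.11 (adjusted p = 0.347). The transgenic samples were the higher for both genes, and neither was called under any alternative.

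Lowest in this group were Mrpl1, a protein of the L1 stalk, at -0.22 ± 0.19, Mrpl30 at -0.19 ± 0.09 and Mrpl24 at -0.17 ± 0.11, each with groups that did not overlap. Mrpl33, another large subunit protein, read 6.72 and 6.46 on the wild-type and 6.45 and 6.40 on the transgenic arrays, a difference of -0.17 ± 0.12, with the excess on wild-type array 1 that the cytosolic genes show. Several probes were tested for 22 mitochondrial genes, and they gave opposite signs in 11, the widest range being that of Mrps25, from -0.18 to 0.31. Signs of single mitochondrial genes were thus often not shared by their probes.

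Quantile scaling and leaving out a wild-type array moved the cytosolic median farthest, and normexp background correction with the 75th percentile kept gave -0.17 for the cytosolic and -0.0042 for the mitochondrial set. Over the 17 settings, the reported one included, the cytosolic median stayed below 0, and it came nearest to 0, and to the mitochondrial median, under quantile normalisation with or without another background correction.

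**Figure D5:**
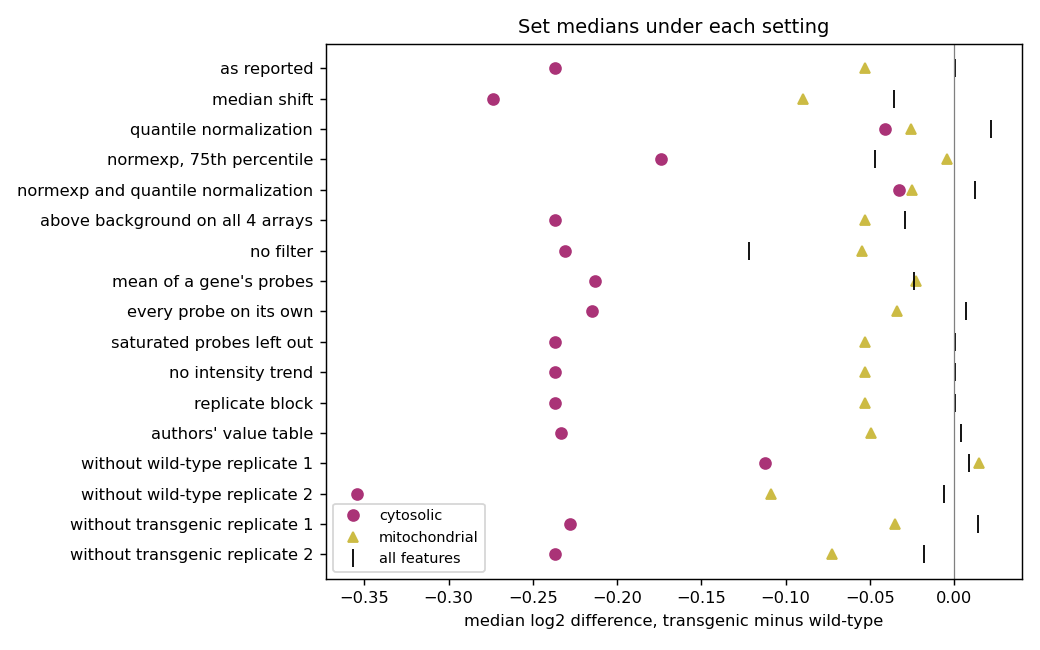
Median log2 difference, transgenic minus wild-type (x axis), of the cytosolic genes, the mitochondrial genes and all features under each processing setting (y axis). The cytosolic median runs from -0.35 without wild-type array 2 to -0.03 with normexp and quantile normalisation, and the mitochondrial median from -0.11 to 0.01.

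Ribosomal proteins left out by the name rule gave values like their set. Of the cytosolic ones, Fau differed by -0.42 ± 0.16, Rpsa by -0.19 ± 0.14 and Rack1 by -0.17 ± 0.13. The 9 mitochondrial ones, among them Dap3 at -0.06 ± 0.09, had a median of 0.01 with 4 below 0. None was called.

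Genes for ribosome assembly mostly lay on the other side of 0. Of 30 genes for processing of ribosomal RNA precursors and ribosome assembly, 22 were above 0, with a median of 0.18, and none was called. Gar1, of the small nucleolar particles that modify ribosomal RNA, read 3.23 and 3.45 on the wild-type and 3.87 and 3.98 on the transgenic arrays, a difference of 0.58 ± 0.11 (adjusted p = 0.0672 in limma). Gnl3, a nucleolar GTPase, read 2.39 and 2.40 against 2.85 and 2.86, a difference of 0.46 ± 0.09 (adjusted p = 0.0646). Both had transgenic samples above the wild-type ones, as did Tsr1, a small subunit assembly factor, at 0.44 ± 0.10 (adjusted p = 0.0992). For 11 genes of RNA polymerase I and its factors the median was 0.02, 7 were above 0 and 0 were called. Among them Taf1d and Taf1a, of the promoter selectivity factor, differed by 0.32 ± 0.11 and 0.68 ± 0.37, and Polr1b, a core subunit, by -0.19 ± 0.14.

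Of 37 cytosolic translation factors 0 were called, 16 were above 0 and the median was -0.02. Eif5a, which eases peptide bond formation at prolines, differed by 0.43 ± 0.10 (adjusted p = 0.103), and Eif1, which guards start codon choice, by -0.44 ± 0.12 (adjusted p = 0.143). Eif4b, a helicase cofactor, differed by -0.34 ± 0.10. The factors thus lay on both sides of 0. Of 24 genes for mitochondrial translation and ribosomal RNA, 7 were above 0, the median was -0.07 and 0 were called, with Mtrf1l, a release factor, at -0.39 ± 0.12 and Mtif2, the initiation factor, at 0.25 ± 0.10.

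Among 16 genes that control ribosome synthesis and growth, 1 was called. Rps6ka1, a kinase of the growth factor pathway, was higher in the transgenic samples by 1.95 ± 0.31 (adjusted p = 0.0464 in limma), from -3.30 and -4.06 on the wild-type to -1.75 and -1.71 on the transgenic arrays. It was well above background on 1 of the 2 wild-type arrays, and its call was lost, among other settings, without either transgenic array, with quantile normalisation and with normexp background correction, where the difference was 0.63. Maf1, a repressor of RNA polymerase III, differed by -0.36 ± 0.10, Eif4ebp1, a translational repressor controlled by mTOR, by 0.29 ± 0.14 and Myc, an activator of ribosome genes, by 0.19 ± 0.10.

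Some markers of other cells moved with genotype. Each of 15 progenitor and fibroblast markers was well above background on the 4 arrays. Of these, 10 were below 0, with a median difference of -0.25, and 2 were called lower in the transgenic samples, Cd24a (-1.55 ± 0.11, adjusted p = 0.0108 in limma) and Pi16 (-1.13 ± 0.14, adjusted p = 0.0295). Signals of the 15 markers were summed in units of the 75th percentile of an array. The sums were 5387 and 4419 on the wild-type and 3785 and 3816 on the transgenic arrays. Wild-type array 1 was the highest, as for the cytosolic ribosomal proteins. Pi16, among the brightest of these markers, read 10.4 and 10.2 on the wild-type and 9.24 and 9.11 on the transgenic arrays. It made up most of the gap in the sums between wild-type array 2 and the transgenic arrays. Of 14 macrophage markers 9 were called higher in the transgenic samples, with summed signals of 66.8 and 66.0 on the wild-type and 77.2 and 76.0 on the transgenic arrays. Itgam made up most of these macrophage sums and differed by -0.04. Its log2 signal was 5.76 and 5.80 on the wild-type and 5.77 and 5.70 on the transgenic arrays. Of 7 tested mature adipocyte markers 2 were called higher, with sums of 27.3 and 30.3 against 114 and 126. Fabp4 made up most of these sums, and the 6 other tested markers summed to 4.88 and 4.61 against 5.93 and 7.42. Pnpla2, at -0.17, made up the largest part of these smaller sums, while Adipoq, Plin1, Retn, Cfd and Lipe were above 0. Retn and Lipe entered the test through the transgenic arrays. Lep was not well above background on any array. Called higher were also 2 of 10 endothelial, 3 of 8 smooth muscle and pericyte and 3 of 7 lymphocyte markers, and 1 of 5 Schwann cell markers was lower. Over all 21476 features, 324 were called higher and 215 lower. Of the markers called higher, Lyz2, Rgs5 and Cd3g were well above background on neither wild-type array. Mrc1, C1qc and Ptprc were so only on wild-type array 2, so all of these entered the test through the transgenic arrays. The smooth muscle and pericyte sums were 15.7 and 15.5 on the wild-type against 22.6 and 23.4 on the transgenic arrays. Endothelial sums overlapped (26.1 and 21.0 against 22.2 and 21.5), and lymphocyte sums were 8.79 and 14.1 against 8.75 and 7.96. Below 0 were 2 endothelial markers, Kdr at -0.25 and Tek at -0.49, which made up most of the endothelial sums. Among lymphocyte markers Cd3e, at -0.99, was below 0 and made up the largest part of the sums. The other 8 endothelial and 6 tested lymphocyte markers were above 0, and the list medians were 1.36 and 1.93. Some of these, such as Emcn and Cd79b, were well above background on neither wild-type array. In bulk RNA fewer cells of a type and less RNA per cell cannot be told apart, and the part of these cells in the ribosomal protein differences was not tested.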

How the data were processed

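Per the labels' protocols, total RNA from the sorted cells was labelled with Cy3 by a low input single-colour kit. The authors deposited scanner files with a processed intensity per spot, background-subtracted and detrended by Agilent Feature Extraction, and the raw intensity, per the file headers. The deposited series value table holds log2 values. Set against the scanner values they matched a 75th percentile shift with each probe centred on its median, and the columns had medians 0.193, -0.021, -0.045 and 0.019. What made them is not stated in these sources.

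Control and outlier spots were left out, spots of a probe were averaged, and each array's 75th percentile of log2 signal was subtracted. Symbols were updated through RefSeq accessions (26582 probes named, 2892 renamed, among members 2). A gene entered by its brightest probe. Its test required signal well above background in both arrays of 1 group or the other. The 2 groups (2 arrays each) were set against each other in limma 3.58.1 under R 4.3.3 (lmFit, then eBayes with its trend option, 2-sided, with 2 residual and 3.57 prior degrees of freedom). Benjamini-Hochberg adjustment covered 21476 features, and the threshold was 0.05. The median SE of a log2 difference was 0.16. The number of arrays limits the precision. The script was tested on simulated data.

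All arrays lay on 1 slide in 1 scan, so no block for these was possible. Alternatives covered scaling, background correction, filters, the choice of probe, the variance model, a replicate block, the value table and leaving out each array. Members and lists were chosen with earlier results of these data known. Named were, per subunit group, the 3 highest and 3 lowest differences, the smallest p and the highest signal, all paralogs with their parents, the stalk proteins, 3 reference genes and, per list, the 3 smallest p, up to 67 genes.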

Additional observations from a re-analysis of the deposited data

How the results depend on the processing

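The cytosolic median (-0.24) and its contrast to the mitochondrial median (-0.18) stayed below 0 under all 16 alternatives. They were -0.041 and -0.016 with quantile normalisation, and -0.033 and -0.0076 with normexp background correction and quantile normalisation together. Leaving out 1 array gave cytosolic medians from -0.35 (without wild-type array 2) to -0.11 (without wild-type array 1), mitochondrial medians from -0.11 to 0.01 and contrasts from -0.25 to -0.13. The calls were 0 cytosolic and 0 mitochondrial genes, except 2 cytosolic genes (Rps15 and Rps24) after a median shift, and 0 to 49 cytosolic and 0 to 1 mitochondrial genes when 1 array was left out. The group with a lone array was then assumed to vary like the other. Features called numbered 539 (60.1% higher), 95 with no intensity trend, 1049 with the replicate block and 75 to 3059 with 1 array left out, and the share higher was 50.4% after a median shift. Same-numbered samples did not deviate together (r = 0.0027 over features), so the numbers are not taken as pairs, and the block called 0 members. The cause of these shifts was not tested. The number of arrays, 2 a group, limits what could be called. Features outside both sets were compared by signal class, a choice made after seeing the data.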
